A study of Mus musculus with 10 samples.

Results

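The 34 genes described here carry fatty acids into skeletal muscle and oxidise them in its mitochondria. They were chosen by name and role, and all 34 were found by Ensembl identifier among the 49315 genes of the count table. RNA came from the gastrocnemius, a hindlimb muscle of mostly fast fibres, of 10 male mice on a C57BL6J background, as the labels give it. In 5 of them, the AHRmKO mice, the floxed aryl hydrocarbon receptor gene (Ahr) had been deleted by a tamoxifen-inducible Cre recombinase, MerCreMer, driven by the human skeletal muscle actin promoter (HSA-MCM). The other 5, the AHRfl/fl mice, were littermates with the floxed alleles and without Cre. All 10 mice breathed cigarette smoke for 16 weeks, on 5 days per week and in 2 sessions of 1 h per day, at 220 ± 80 mg/m3 of total suspended particulates. Smoke began 4 weeks after tamoxifen by the sample labels, while the methods text gives both 4 and 3 weeks. Muscle was taken 72 h after the last exposure by the labels, while the text also gives a window that begins earlier. Mice that breathed room air were not analysed here, so the values give the effect of the genotype under smoke and not that of smoke. Cre and the deletion are present in the same mice and cannot be told apart, and cells of the muscle other than fibres keep Ahr. Each mouse was taken as 1 replicate. The labels give no litters, and the sources used here do not state separately whether the controls received tamoxifen.

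Muscle takes up fatty acids that lipoprotein lipase (Lpl) frees from circulating triglyceride, or that the lipases of the fibre free from its own lipid droplets. They are bound in the cytosol by Fabp3, joined to coenzyme A, and passed into the mitochondrion as carnitine esters. The carnitine step is slowed by malonyl-CoA, which acetyl-CoA carboxylase 2 (Acacb) makes and malonyl-CoA decarboxylase (Mlycd) removes. In the matrix each turn of β-oxidation shortens the chain by dehydrogenation, hydration, a further oxidation and thiolysis, and the electrons of the first step pass through the electron transfer flavoprotein to the respiratory chain. Slow and fast oxidative fibres carry more of this machinery than fast glycolytic fibres.

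Total counts were between 30393035 and 37954388 per mouse, and the 34 genes had from 115 to 32674 counts in a mouse. Values are in CPM, the counts of a gene scaled to the TMM-normalised library size. Ahr itself had 31 to 110 counts per mouse and a log2 fold change of -0.35 (adjusted p = 0.844 by the edgeR quasi-likelihood test and the Benjamini-Hochberg method), and since the floxed exon is a small part of the transcript, this sum over all exons is a weak check of the deletion. Esr1, whose sequence the Cre fusion carries in part, had 544 to 658 counts in AHRfl/fl and 9770 to 24975 in AHRmKO mice, which did not overlap; the part of the transgene in these counts was not tested. The 9 fast-fibre and general fibre genes summed to 133900 to 177500 CPM, and the hepatocyte markers summed to at most 0.286 CPM. Mouse AHRfl/fl 33 stood apart with 25494 genes counted, where the others had 21296 to 23833. Xist had 44 to 75 counts in mice AHRfl/fl 11, 15 and 33 and AHRmKO 9 and 22, and 0 to 3 in the others, although all are described as male and Y-linked genes were counted in every library. Leaving those 5 libraries out kept only mice AHRfl/fl 12 and 13 and AHRmKO 8, 19 and 34. Of these, AHRfl/fl 12 was the lowest AHRfl/fl mouse in 27 of the 34 members. In that fit 0 members had an adjusted p under 0.05. An unadjusted p under 0.05 was found for 1 member, Mlycd, where 3.68% of all genes tested had (log2 fold change -0.38, unadjusted p = 0.043, adjusted p = 0.979, edgeR). The values of Acot2, Pnpla2 and Cpt1b in that fit are given with those genes.

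None of the 34 genes passed the test between the genotypes. In the quasi-likelihood test of edgeR, adjusted over 14714 genes by Benjamini-Hochberg, 0 members had an adjusted p under 0.05. Of all genes tested 0.0068% had (1 gene, Esr1). With the DESeq2 Wald test 0 members had, where 0.193% of the 10858 genes given an adjusted p had. At an unadjusted p under 0.05 there was 1 member, Mlycd, against 6.61% of all genes tested (3.38% lower and 3.23% higher in AHRmKO). In 0 members did the 5 AHRfl/fl mice and the 5 AHRmKO mice lie apart without overlap, where 1.4% of all genes did. The lowest adjusted p among the members was 0.665. Of the 34, 22 had a lower and 12 a higher fitted level in AHRmKO muscle, and 29 lay within 0.1 of 0 on the log2 scale. This split turned with single mice, to 11 lower and 23 higher without AHRfl/fl 15 or without AHRmKO 34 and to 16 and 18 without AHRfl/fl 33, and it was 31 and 3 without AHRfl/fl 12. Of the 34 fold changes, 25 changed sign when at least 1 of the 10 mice was left out. Without the 5 libraries with Xist counts the split was 9 lower and 25 higher, with AHRfl/fl 12 and 13 as the only controls left. With the slow-fibre score in the model it was 31 lower and 3 higher (median log2 fold change -0.087), and with the Myh2 level, chosen after the data were seen, 28 and 6 (median -0.062). The median log2 fold change was -0.027 over the members and 0.0057 over all genes tested, and over the members it was 0.074 without AHRfl/fl 15, 0.060 without AHRmKO 34 and 0.13 without the 5 libraries.

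**Figure D1:**
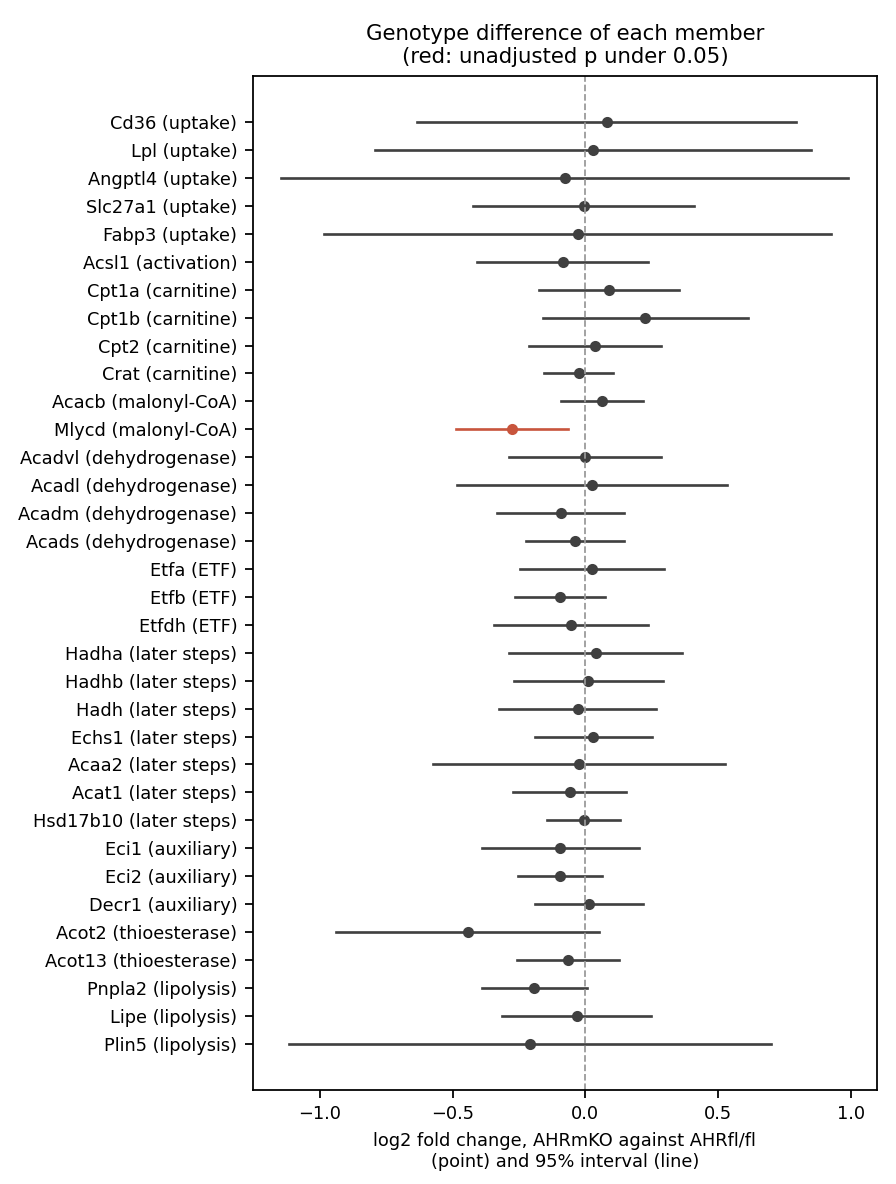
The log2 fold change of each of the 34 genes, AHRmKO against AHRfl/fl (5 mice each), is drawn as a point with its 95% interval from edgeR as a line. The estimates run from -0.44 for Acot2 to 0.23 for Cpt1b, and only the interval of Mlycd lies wholly on 1 side of 0.

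The intervals show what 5 mice per group could resolve. The 95% interval reached 0.13 to either side of the estimate on the log2 scale for the steadiest gene, Crat, and 1.07 for Angptl4. For 25 of the 34 members the interval lay within 0.5 of 0 in both directions, so that a larger change was outside it. For the other 9 (Cd36, Lpl, Angptl4, Fabp3, Cpt1b, Acadl, Acaa2, Acot2 and Plin5) it reached further in at least 1 direction.

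Mlycd (chr8:119394878-119411102, plus strand of GRCm38; ENSMUSG00000074064) encodes malonyl-CoA decarboxylase, which takes away the inhibitor of fatty acid entry into mitochondria. Values are listed throughout in the order of mice 11, 12, 13, 15 and 33 for AHRfl/fl and 8, 9, 19, 22 and 34 for AHRmKO. Mlycd was at 91.6, 107, 106, 106 and 102 CPM in the AHRfl/fl mice and 67.5, 82.3, 99.4, 96.3 and 76.8 CPM in the AHRmKO mice. Mice AHRmKO 8, 34 and 9 were below every AHRfl/fl mouse, and mice AHRmKO 19 and 22 lay between the lowest AHRfl/fl mouse and the others. The means were 102 ± 6.28 CPM in AHRfl/fl and 84.5 ± 13.3 CPM in AHRmKO muscle (SD, n = 5 each), with a log2 fold change of -0.28 (95% interval -0.49 to -0.064). Its standard error was 0.0983, and edgeR gave an unadjusted p of 0.0145 and an adjusted p = 0.665. A two-sided exact permutation test of log2 CPM over all splits of 5 and 5 gave p = 0.0318, with no adjustment over genes. Leaving out each mouse in turn gave log2 fold changes from -0.34 to -0.21 and kept the unadjusted p under 0.05 in each fit, but never an adjusted p under 0.549.

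Acacb, the mitochondrial acetyl-CoA carboxylase that makes malonyl-CoA, was at 242, 256, 281, 270.5 and 266 CPM in the AHRfl/fl mice and 315, 253, 271, 268 and 269 CPM in the AHRmKO mice. Apart from mouse AHRmKO 8, the highest, all mice of both genotypes lay between 242 and 281 CPM. It had a log2 fold change of 0.064 (95% interval -0.090 to 0.22) and an adjusted p = 0.907 (edgeR). Without AHRmKO 8 the value was 0.011 and without AHRfl/fl 11 it was 0.035.

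At the entry of fatty acids, 2 of the 5 uptake genes had higher and 3 lower fitted levels in AHRmKO muscle, and 0 passed the test. Cd36, the fatty acid translocase of the fibre surface and of capillaries, was at 164, 103, 153, 294 and 240.3 CPM in the AHRfl/fl mice and 279.5, 224, 183, 212 and 112 CPM in the AHRmKO mice. The lowest mouse of each genotype, AHRfl/fl 12 and AHRmKO 34, had about the same level, and the groups overlapped over nearly their whole range (log2 fold change 0.080, 95% interval -0.63 to 0.79). Lpl, which frees fatty acids at the capillary wall, was at 462, 262, 393, 702 and 633 CPM in the AHRfl/fl mice and 858, 487, 400.0, 518 and 239.7 CPM in the AHRmKO mice. Mice 12 and 34 were again the lowest, and the genotype difference was small against this spread (log2 fold change 0.030, 95% interval -0.79 to 0.85). Without the 5 libraries with Xist counts the log2 fold change was 0.58 for Cd36 (unadjusted p = 0.24) and 0.61 for Lpl (unadjusted p = 0.389, edgeR). The only controls in that fit were AHRfl/fl 12 and 13. Endothelial markers, which move with capillary content, summed to 202 to 301 CPM in AHRfl/fl and 214 to 367 CPM in AHRmKO muscle, and mouse AHRmKO 8 was highest in both Lpl and these markers. All 8 endothelial markers had higher fitted levels in AHRmKO muscle, 0 with an unadjusted p under 0.05 (edgeR). Adipocyte markers summed to 10.8 to 66.5 and 7.95 to 65.7 CPM, their defining gene Adipoq had 28 to 270 counts, and 0 of the 7 tested had an unadjusted p under 0.05. With an adipocyte score in the model, the log2 fold change of Lpl was -0.073 instead of 0.030. Whether other cells set the levels of Cd36 and Lpl was not tested, and in bulk muscle fewer cells of a type and less RNA per cell cannot be told apart.

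Fabp3, the fatty acid binding protein of heart and muscle, had the highest level of all members for its length, 443 CPM per kilobase of exon. Acadl, Etfa, Acadvl and Acaa2 followed at 114, 106, 103 and 86.9 CPM per kilobase. By the length of the principal transcript, used for the 28 members that had one (not for Acadvl, Acsl1, Eci1, Eci2, Pnpla2 or Lipe), Fabp3 was again highest and Acadm and Hadhb came next (158 and 157 CPM per kilobase). Fabp3 (chr4:130308595-130315463, plus strand) was at 293, 155, 307, 674 and 411 CPM in the AHRfl/fl mice and 527, 296, 401, 418 and 161 CPM in the AHRmKO mice. Between the lowest and the highest mouse it differed 4.34-fold, and both genotypes held low and high mice (log2 fold change -0.028, 95% interval -0.98 to 0.93). Angptl4, a secreted inhibitor of Lpl, had the lowest level of the uptake genes per kilobase (1.89 CPM) and the widest spread of all members, at 5.63, 5.83, 3.47, 9.3 and 10.2 CPM in the AHRfl/fl mice and 3.02, 8.09, 14, 3.65 and 3.89 CPM in the AHRmKO mice. Its order of mice was not that of Lpl, since mouse AHRmKO 8 was lowest in Angptl4 and highest in Lpl, and mouse AHRmKO 19 was highest in Angptl4. Its log2 fold change of -0.077 (95% interval -1.15 to 0.99) has the widest interval of all members. Slc27a1, a fatty acid transport protein, had a log2 fold change of -0.0065, and Acsl1, the main acyl-CoA synthetase of muscle, a value of -0.085, which was -0.20 without AHRfl/fl 12 and 0.022 without AHRfl/fl 15.

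**Figure D2:**
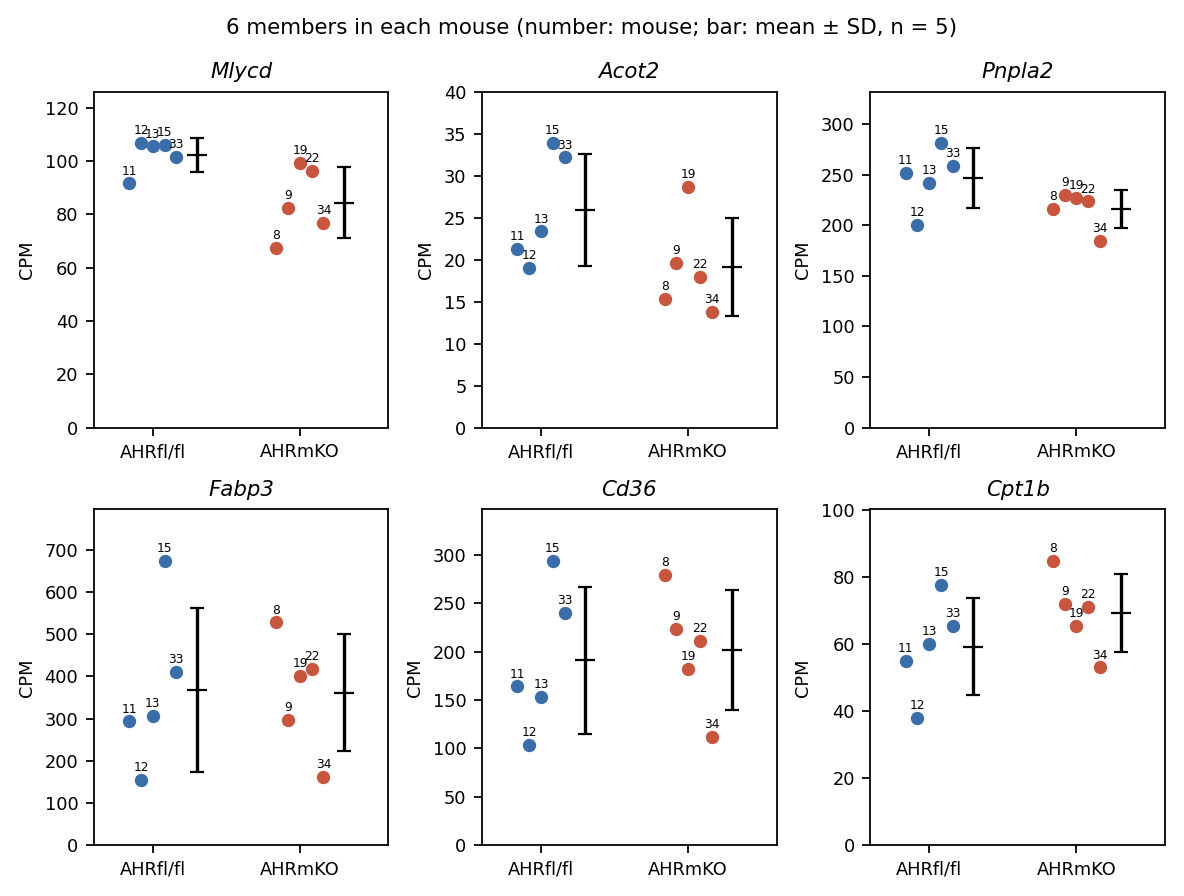
CPM of 6 members in each mouse are shown by genotype, with the mouse number above each point and the mean ± SD (n = 5) as a bar. Mlycd has 3 AHRmKO mice below all AHRfl/fl mice, while Fabp3, Cd36 and Cpt1b spread widely within both genotypes with mice 12 and 34 the lowest of their genotypes.

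In the carnitine shuttle 3 of 4 genes had higher fitted levels in AHRmKO muscle and 0 passed the test. Cpt1b encodes the muscle form of carnitine palmitoyltransferase 1, the step that malonyl-CoA inhibits. It lies at chr15:89416405-89425863, minus strand, and was at 55.1, 38, 60.1, 77.5 and 65.5 CPM in the AHRfl/fl mice and 84.9, 71.9, 65.5, 71.2 and 53 CPM in the AHRmKO mice. AHRfl/fl 12 was well below all other mice, and AHRmKO 8 was highest. The log2 fold change of 0.23 (95% interval -0.16 to 0.61) was the highest estimate of any member, with an unadjusted p of 0.223 and an adjusted p = 0.855 (edgeR). It was 0.10 without AHRfl/fl 12, 0.14 without AHRmKO 8, 0.34 without AHRfl/fl 15 and 0.47 without the 5 libraries with Xist counts. Of its exon bases 81.4% also lie in another gene model, Gm44502, so its level depends on how reads there were assigned. Cpt1a, the liver form, which muscle also carries, was at 8.98, 10.1, 8.1, 9.95 and 8.1 CPM in the AHRfl/fl mice and 9.22, 10.3, 8.56, 12.2 and 7.78 CPM in the AHRmKO mice. It did not follow Cpt1b, since mouse 12 was among the highest in Cpt1a (log2 fold change 0.089, 95% interval -0.18 to 0.35). Per kilobase of exon, Cpt1b was at 19.1 and Cpt1a at 1.22 CPM. The ratio of Cpt1a to Cpt1b counts was 0.124 to 0.265 in AHRfl/fl and 0.109 to 0.171 in AHRmKO muscle, with mouse 12 highest. Cpt2, which turns acylcarnitine back into acyl-CoA, had a log2 fold change of 0.037, which was -0.035 without AHRfl/fl 12 and 0.13 without AHRfl/fl 15.

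Crat, carnitine acetyltransferase, which buffers acetyl-CoA, was the steadiest member. It was at 429.6, 428, 466, 451 and 436 CPM in the AHRfl/fl mice and 401, 447, 452, 432 and 439.9 CPM in the AHRmKO mice. All 10 mice lay within 1.16-fold, and the SD of its log2 CPM over the mice, 0.0593, was at percentile 0.924 of all genes tested. Mouse AHRfl/fl 12, low in most members, was lowest of its group in Crat too, but close to the next mouse, and AHRmKO 8 was lowest of all. Mouse AHRmKO 34, also low in most members, was not low in Crat. The median of this SD was 0.227 over the members and 0.217 over all genes.

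The acyl-CoA dehydrogenases start each turn of β-oxidation, each for its own chain length. Acadl, the long-chain enzyme, was at 204, 149, 209, 299 and 267 CPM in the AHRfl/fl mice and 291, 232, 241, 252.3 and 132 CPM in the AHRmKO mice. Mice 12 and 34 were lowest and the other 8 lay between 204 and 299 CPM (log2 fold change 0.026, 95% interval -0.48 to 0.53). Acadvl, the very-long-chain enzyme of the inner membrane, was at 245, 211, 276, 332 and 317 CPM in the AHRfl/fl mice and 311, 265, 298, 293 and 212 CPM in the AHRmKO mice, with the same pair of mice lowest (log2 fold change -0.0018, 95% interval -0.29 to 0.28). Of its exon bases 42.9% also belong to Dvl2, and the share was 58.2% for Etfb, 19.6% for Fabp3 and 15.6% for Lipe with other genes and at most 9.91% for the other members but Cpt1b. Acadm and Acads, for medium and short chains, had log2 fold changes of -0.093 and -0.039. Electrons from all 4 pass to the flavoprotein of Etfa and Etfb and on through Etfdh. Etfa was at 193, 150.1, 189, 228 and 205 CPM in the AHRfl/fl mice and 236, 194, 209.5, 194 and 148 CPM in the AHRmKO mice, again lowest in mice 12 and 34 (log2 fold change 0.025, 95% interval -0.25 to 0.30). Etfb and Etfdh had log2 fold changes of -0.097 and -0.052, and 0 of these 7 genes passed the test.

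The later steps for long chains belong to the mitochondrial trifunctional protein, whose α subunit is Hadha and whose β subunit is Hadhb. The genes lie side by side on chromosome 5 in opposite directions and start close together. Hadha was at 368, 274, 398, 494 and 432 CPM in the AHRfl/fl mice and 453, 406, 422, 438 and 299.6 CPM in the AHRmKO mice. Hadhb was at 300.4, 244, 314, 400.0 and 343 CPM in the AHRfl/fl mice and 369, 314, 338, 344 and 249.6 CPM in the AHRmKO mice. The order of the mice was nearly the same in both, from mice 12 and 34 up to mouse 15. Within a library the ratio of Hadha to Hadhb counts was 1.12 to 1.27 in AHRfl/fl and 1.2 to 1.29 in AHRmKO muscle, a 1.15-fold range over 10 mice, where Hadha alone ranged 1.8-fold. This order was not particular to the pair. In 24 of the 34 members, on several chromosomes, mice 12 and 34 were the lowest 2 of all 10, and in 23 mouse 15 was the highest. Log2 fold changes were 0.039 for Hadha (95% interval -0.29 to 0.36) and 0.012 for Hadhb (-0.27 to 0.29).

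Promoter windows of 300 bases around the gene start were taken from RefSeq (GRCm38.p6), which gave 31 windows for 26 of the 34 members. Those of Hadha (chr5:30154931-30155230, minus strand) and Hadhb (chr5:30155003-30155302, plus strand) are shown because the genes moved together, as other members did too, and their windows share 228 bases. That of Mlycd (chr8:119394644-119394943, plus strand) is shown as the member with the lowest p. Those of Acadm (chr3:153944594-153944893, minus strand) and Plin5 (chr17:56117499-56117798, minus strand, the more upstream of 2 starts) are shown for their motifs. Capitals mark AGGTCA, the unit letters of nuclear receptor sites, and GCGTG, the core letters bound by AHR with its partner ARNT, each on either strand.
Hadha: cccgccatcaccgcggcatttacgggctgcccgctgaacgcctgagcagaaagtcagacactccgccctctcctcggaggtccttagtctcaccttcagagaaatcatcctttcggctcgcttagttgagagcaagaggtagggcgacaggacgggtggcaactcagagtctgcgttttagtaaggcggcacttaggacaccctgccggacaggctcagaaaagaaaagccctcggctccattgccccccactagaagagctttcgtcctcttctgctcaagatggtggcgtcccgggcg
Hadhb: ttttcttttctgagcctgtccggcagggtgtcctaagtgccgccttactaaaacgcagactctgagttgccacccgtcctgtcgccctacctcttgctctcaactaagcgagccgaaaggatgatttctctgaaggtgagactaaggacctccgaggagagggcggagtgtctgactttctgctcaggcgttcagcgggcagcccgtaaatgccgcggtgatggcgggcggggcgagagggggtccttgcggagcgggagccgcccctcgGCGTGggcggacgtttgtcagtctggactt
Mlycd: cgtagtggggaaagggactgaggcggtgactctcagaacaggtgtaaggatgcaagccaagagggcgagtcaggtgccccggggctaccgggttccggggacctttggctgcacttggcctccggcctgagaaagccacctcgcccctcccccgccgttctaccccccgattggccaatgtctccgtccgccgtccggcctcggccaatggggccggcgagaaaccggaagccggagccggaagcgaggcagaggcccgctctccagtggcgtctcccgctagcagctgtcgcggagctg
Acadm: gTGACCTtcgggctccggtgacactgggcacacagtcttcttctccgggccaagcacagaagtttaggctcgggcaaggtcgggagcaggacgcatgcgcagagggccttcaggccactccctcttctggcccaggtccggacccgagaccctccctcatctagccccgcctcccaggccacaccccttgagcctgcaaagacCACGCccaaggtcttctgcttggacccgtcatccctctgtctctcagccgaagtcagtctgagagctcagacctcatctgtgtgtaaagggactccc
Plin5: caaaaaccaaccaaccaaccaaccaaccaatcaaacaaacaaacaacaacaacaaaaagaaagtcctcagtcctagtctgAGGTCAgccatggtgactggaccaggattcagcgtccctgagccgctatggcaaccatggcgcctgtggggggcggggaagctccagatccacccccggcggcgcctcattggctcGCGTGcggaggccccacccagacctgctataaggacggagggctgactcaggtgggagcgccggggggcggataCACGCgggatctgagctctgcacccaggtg

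The letters AGGTCA stood in 8 of the 31 member windows (25.8%) and in 16.3% of all 32851 promoter windows. The 7 genes with it were Acacb, Acadm, Acadvl, Cd36, Cpt1a, Echs1 and Plin5. The spaced repeat AGGTCANAGGTCA, the form that PPAR with RXR binds, was in 0 member windows and in 0.04% of all. GCGTG stood in 17 member windows (54.8%, 16 genes) and in 32.4% of all windows. The longer TNGCGTG, which contains it, was found in Etfdh and Plin5 (6.45% of member windows against 5.07% of all). The windows of Hadha and Mlycd hold none of these letters, which says nothing of other parts of the genes. Base composition was not matched between members and other genes, and binding was not measured.

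Acaa2, the thiolase that cuts off acetyl-CoA, was at 116, 79.6, 123, 187 and 158 CPM in the AHRfl/fl mice and 159, 126, 134, 156 and 79.5 CPM in the AHRmKO mice. Mice 12 and 34 had nearly the same level, the lowest, and mouse 15 was highest (log2 fold change -0.024, 95% interval -0.57 to 0.53). Hadh, Echs1, Acat1 and Hsd17b10, which serve shorter chains, ketone bodies and branched amino acids as well, had log2 fold changes between -0.059 and 0.030. Hsd17b10 was nearly as steady as Crat, with an SD of log2 CPM of 0.0821. Eci1, Eci2 and Decr1, which prepare unsaturated chains, had values of -0.094, -0.094 and 0.013. None of these 8 genes passed the test.

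Acot2, a mitochondrial thioesterase that splits long acyl-CoA, had the largest fold change of any member and is named for that after its values were seen. It lies at chr12:83987861-83993873, plus strand, and was at 21.3, 19.1, 23.4, 33.9 and 32.2 CPM in the AHRfl/fl mice and 15.3, 19.6, 28.7, 18 and 13.8 CPM in the AHRmKO mice. Mice AHRmKO 8, 22 and 34 were below every AHRfl/fl mouse, AHRmKO 9 lay among the lower AHRfl/fl mice and AHRmKO 19 among the higher. The means were 26 ± 6.66 CPM in AHRfl/fl and 19.1 ± 5.83 CPM in AHRmKO muscle (SD, n = 5 each), with a log2 fold change of -0.44 (95% interval -0.94 to 0.053). edgeR gave an unadjusted p of 0.0746 and an adjusted p = 0.787, and a two-sided exact permutation test gave p = 0.103. Without the 5 libraries with Xist counts the log2 fold change was -0.14 (unadjusted p = 0.702, edgeR), and leaving out each mouse gave -0.63, without AHRmKO 19, to -0.33, without AHRfl/fl 15. Acot1, its close copy next to it on the chromosome, was at 0.963 ± 0.555 and 0.697 ± 0.36 CPM, and since only uniquely mapped reads were counted, how reads split between them is uncertain. Acot13, a thioesterase of another family, had a log2 fold change of -0.065.

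All 3 genes of lipolysis had lower fitted levels in AHRmKO muscle and 0 passed the test. Pnpla2 (chr7:141455198-141460743, plus strand), the adipose triglyceride lipase that begins lipolysis, was at 251.7, 200.1, 241, 281 and 259 CPM in the AHRfl/fl mice and 216, 230.0, 226, 223 and 184 CPM in the AHRmKO mice. Mouse AHRmKO 34 was lowest of all, the other 4 AHRmKO mice lay between the lowest and the next AHRfl/fl mouse, and 4 of 5 AHRfl/fl mice were above every AHRmKO mouse. The log2 fold change of -0.19 (95% interval -0.39 to 0.0061) had an unadjusted p of 0.0565 and an adjusted p of 0.766 (edgeR), and a two-sided exact permutation test gave p = 0.111. Without the 5 libraries with Xist counts it was -0.079 (unadjusted p = 0.592, edgeR). Lipe, hormone-sensitive lipase, which takes the next step, was at 26.3, 23.1, 21.1, 31.8 and 25.3 CPM in the AHRfl/fl mice and 25.5, 29.7, 25.5, 25.7 and 18.3 CPM in the AHRmKO mice (log2 fold change -0.032, 95% interval -0.31 to 0.25). The ratio of Pnpla2 to Lipe counts was 9.75 ± 1.14 in AHRfl/fl and 8.76 ± 0.831 in AHRmKO muscle (SD, n = 5 each), and the ranges overlapped. Plin5, which ties lipid droplets to mitochondria, was at 12, 7.82, 15.8, 35.3 and 20.6 CPM in the AHRfl/fl mice and 21.9, 16.4, 15.8, 16.3 and 8.58 CPM in the AHRmKO mice. Its mean in AHRfl/fl muscle rested on mouse 15, and without that mouse the log2 fold change turned from -0.21 to 0.17.

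**Figure D3:**
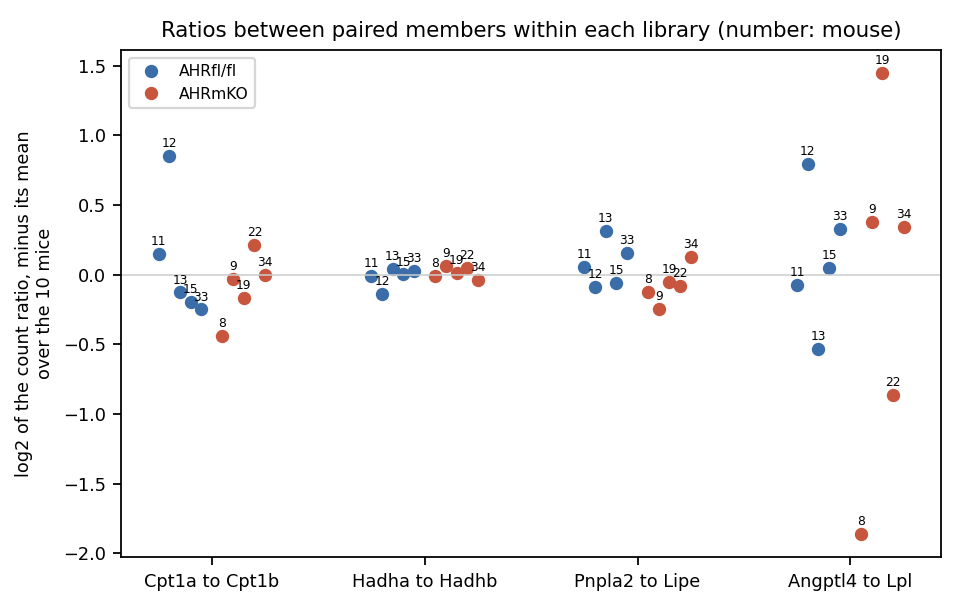
The log2 ratio of the counts of 2 members within each library is shown by mouse, minus its mean over 10 mice. Hadha to Hadhb stays within a 1.15-fold range, Pnpla2 to Lipe within 1.48-fold and Cpt1a to Cpt1b within 2.44-fold, while Angptl4 to Lpl spreads 9.92-fold from mouse AHRmKO 8 to mouse AHRmKO 19.

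Within both genotypes the members differed from mouse to mouse. Centred on each gene's mean, their mean log2 CPM was -0.335 in AHRfl/fl 12, -0.412 in AHRmKO 34 and 0.355 in AHRfl/fl 15, with the other 7 mice between -0.064 and 0.178. Mouse 12 was the lowest AHRfl/fl mouse in 27 of 34 members and mouse 34 the lowest AHRmKO mouse in 29. In 24 members these were the lowest 2 of all 10 mice, and in 23 mouse 15 was the highest of all. In 10 members the highest mouse had over 2 times the level of the lowest. Other mitochondrial enzymes, outside fatty acid oxidation, had their lowest summed levels in the same pair, 6292 CPM in mouse 12 and 6033 CPM in mouse 34, against 6868 to 7139 in the rest. Counts from the mitochondrial genome were 7.34% and 8.35% of the total in mice 12 and 34 and 9.71% to 11.5% in the others.

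**Figure D4:**
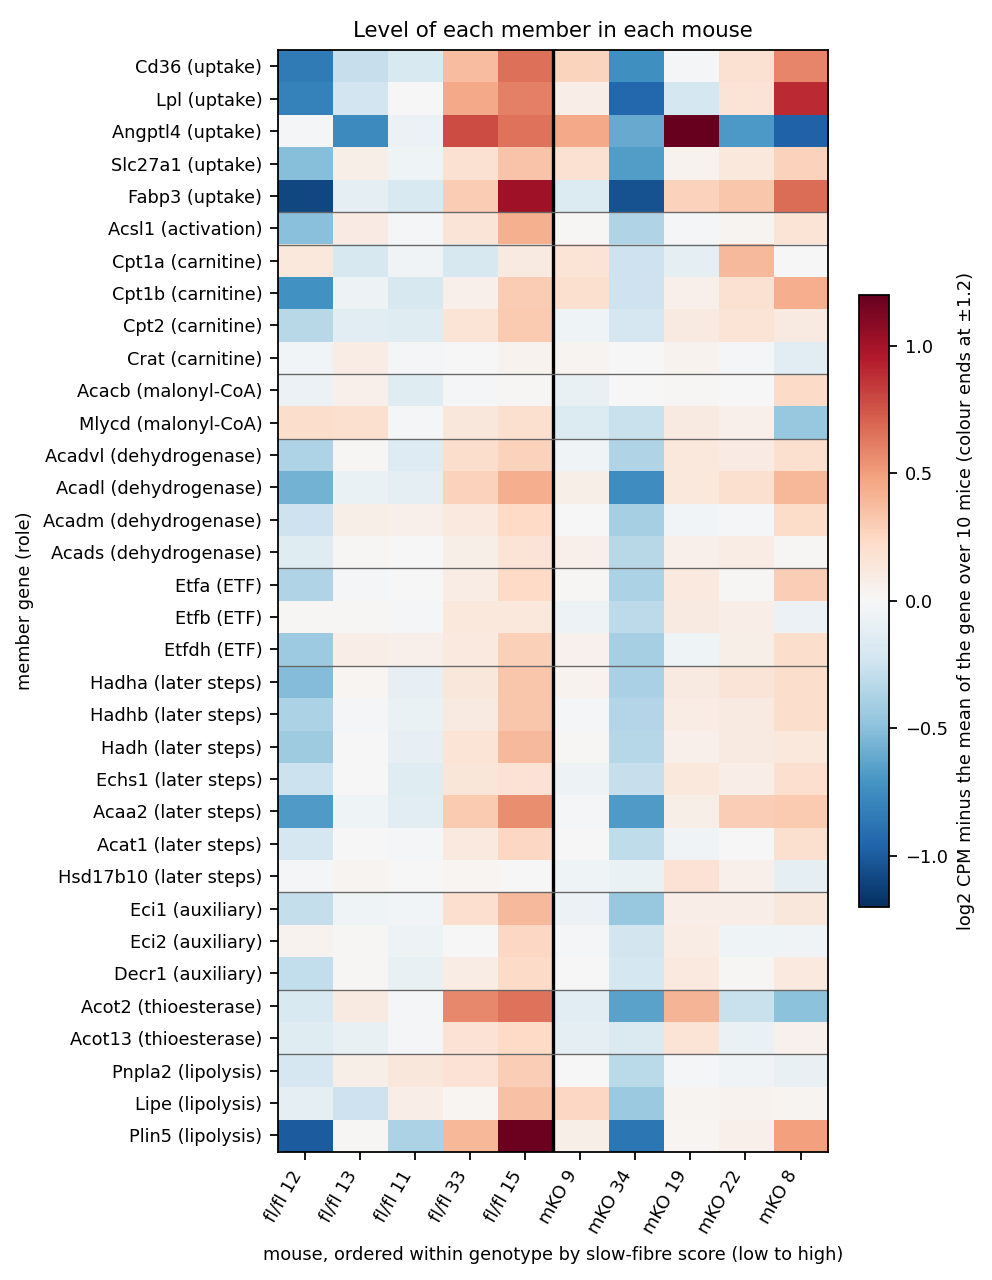
Each row is a member, grouped by role, each column a mouse, ordered within genotype by its slow-fibre score, and the colour is log2 CPM minus the gene's mean over 10 mice. Blue columns mark mice 12 and 34 and a red column mouse 15, while Crat, Hsd17b10 and Acacb stay pale, and Angptl4 and Mlycd follow another order. Acot2 is also low in mice 12 and 34 and high in mouse 15, but high in mouse AHRmKO 19 and low in mouse AHRmKO 8.

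The muscle pieces also differed in slow-fibre genes. The slow-fibre score, the mean log2 CPM of 8 genes including the slow myosin Myh7, was 2.40 in mouse 12 and 7.97 in mouse AHRmKO 8, and Myh7 itself had from 115 to 24041 counts. The summed slow-fibre genes ranged from 94.8 to 2019 CPM in AHRfl/fl and from 252.4 to 2395 CPM in AHRmKO muscle, and all 8 had higher fitted levels in AHRmKO muscle with 0 at an unadjusted p under 0.05 (edgeR). In an edgeR fit with genotype and this score, 9 of the 34 members rose with the score at an adjusted p under 0.05 and 0 fell, where 2.05% of all 14706 genes tested rose (3.43% in either direction). They were Cpt2, Eci1, Hadhb, Acadvl, Acaa2, Hadh, Echs1, Fabp3 and Hadha. The steepest was Fabp3, by 0.29 log2 units per unit of score (standard error 0.0636, adjusted p = 0.0488), and the lowest adjusted p was that of Cpt2 (0.0145, slope 0.095). Slopes were positive in 32 members, with a median of 0.085 against 0.00016 over all genes. For Mlycd the slope was -0.00102 and for Crat -0.0074. The slope is that of all 10 mice together, and the members share these mice.

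The count of 9 changed with single mice, while the median slope of the members stayed between 0.068 and 0.11 with 31 to 34 positive slopes when each mouse was left out. The share of all genes that rose, 2.05% with all mice, moved as well. The count was 0 without mouse AHRfl/fl 12, 15 or 33, where 0.61%, 0.57% and 0.565% of all genes rose, and 22 without AHRmKO 9, where 5.14% rose. It was 1 without AHRmKO 8 (1.15% of all genes), 2 without AHRfl/fl 11 (1.53%), 4 without AHRmKO 22 (1.38%), and 8 or 9 without AHRfl/fl 13, AHRmKO 19 or AHRmKO 34 (1.43% to 2.12%). It was also 0 with the 2 mice farthest from the median score left out (median slope 0.061, 33 positive), where 0.122% of all genes rose, and with Myh7 alone as the score (median 0.049 per unit of Myh7, 33 positive), where 0.462% rose. With Myh2, the myosin of fast oxidative fibres, as the score, an alternative chosen after the data were seen, 22 members rose and 0 fell, where 3.91% of all genes rose (6.81% in either direction). Cpt1b then had a slope of 0.26 (standard error 0.0307, adjusted p = 0.000289, edgeR) and Acsl1 a slope of 0.22 (adjusted p = 0.000963). Mouse 12 had 10293 Myh2 counts, the fewest, and mouse 34 had 39233, the next fewest, against 56711 to 147470 in the others. The part of fibre composition in the members' levels was not tested. With the slow-fibre score added to the genotype model, 0 members had an adjusted p under 0.05 between genotypes (0.0136% of all genes had), and 3 had an unadjusted p under 0.05, Mlycd, Acot2 and Pnpla2, against 7.65% of all genes.

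**Figure D5:**
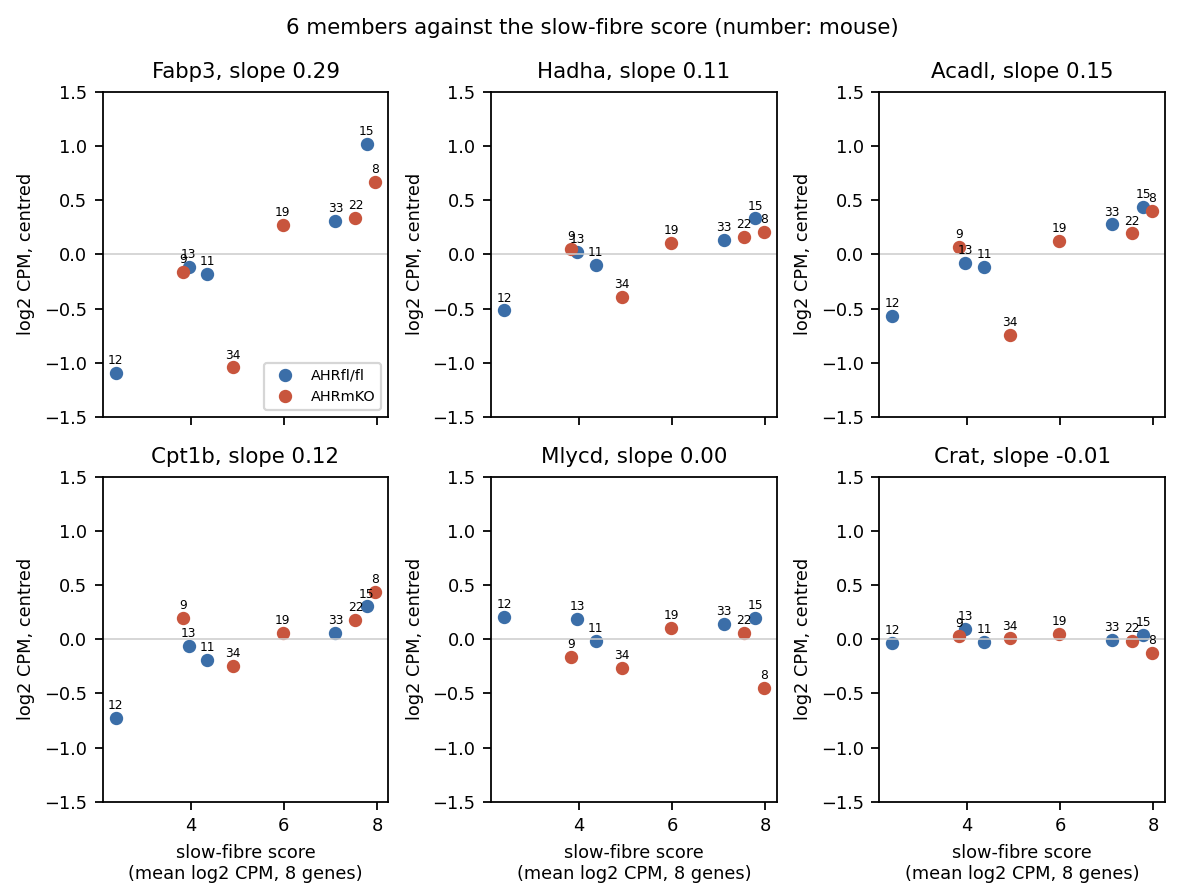
Log2 CPM of 6 members, centred on the mean of 10 mice, is plotted against the slow-fibre score of each mouse, coloured by genotype. Fabp3 and Hadha rise from mouse 12 to mice 15 and 8, with mouse 34 below the mice of like score, Acadl and Cpt1b have slopes of 0.15 and 0.12 (adjusted p = 0.0804 and 0.0607, edgeR), and Crat and Mlycd lie near level (slopes -0.0074 and -0.00102).

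Of 89 other genes of fatty acid metabolism, 86 were abundant enough to be tested, and Acox2, Acaa1b and Fgf21 were not. In edgeR 0 of the 86 had an adjusted p under 0.05 and 6 an unadjusted p under 0.05, against 6.61% of all genes. Fitted levels were higher in AHRmKO muscle for 52 and lower for 34. Among uptake and activation genes 8 of 11 were higher and 3 lower, and 1 had an unadjusted p under 0.05, Dbi, the acyl-CoA binding protein (log2 fold change -0.14, unadjusted p = 0.0353, edgeR). Of 19 further genes listed for mitochondrial fatty acid and acyl-carnitine metabolism, 12 were higher and 7 lower. Not all of their products are mitochondrial. An unadjusted p under 0.05 was found for 2 of them. They were Acadsb, a dehydrogenase of branched short chains (0.15, unadjusted p = 0.0458, edgeR) and Acot7, a cytosolic thioesterase (-0.16, unadjusted p = 0.0379, edgeR). Acot7 was at 19.96, 20.3, 22, 19.8 and 22.5 CPM in the AHRfl/fl mice and 16.3, 19.5, 18.7, 19.1 and 19.7 CPM in the AHRmKO mice. Every AHRmKO mouse was below every AHRfl/fl mouse, and 1.4% of all genes lay apart in this way in either direction. Such a separation by itself fixes the p of a two-sided exact permutation test at 0.00794, the smallest for 5 against 5. That p restates the separation and has no adjustment over genes. Of 15 tested peroxisomal genes, which shorten very long chains, 8 were higher and 7 lower, and 1 had an unadjusted p under 0.05, Abcd2, an importer of such chains (0.24, unadjusted p = 0.0103, edgeR).

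Of 18 genes of triglyceride storage and release 15 were higher in AHRmKO muscle and 0 had an unadjusted p under 0.05. The highest value, that of G0s2, the inhibitor of Pnpla2, was 0.52 (unadjusted p = 0.112, edgeR), and several genes of this list are those of adipocytes. Of the 7 adipocyte markers tested, 6 also had higher fitted levels in AHRmKO muscle, and their part in the storage genes was not tested. Of 10 genes of fatty acid synthesis 5 were higher, and Mcat, of the mitochondrial synthesis pathway, had the only unadjusted p under 0.05 (-0.23, unadjusted p = 0.0134, edgeR). Of 13 tested regulators 9 were lower. Esrra, the nuclear receptor ERRα that drives oxidative genes, was at 139.9, 133, 154, 143 and 150.0 CPM in the AHRfl/fl mice and 124, 129, 129.9, 134 and 129 CPM in the AHRmKO mice. Only mouse AHRmKO 22 was above the lowest AHRfl/fl mouse, and the log2 fold change was -0.15 (unadjusted p = 0.0202, adjusted p = 0.665, edgeR). Ppara and Ppargc1b, regulators with wide spread, had log2 fold changes of 0.57 and -0.39 with unadjusted p of 0.215 and 0.106 (edgeR). Each value leaned on 1 mouse. Ppara had 380 counts in mouse AHRmKO 8 and 60 to 164 in the others. Ppargc1b had 430 counts in mouse AHRfl/fl 13 and 139 to 284 in the others.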

How the data were processed

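RNA of 10 gastrocnemius muscles was sequenced as poly(A)-selected pairs. The authors trimmed reads with Trimmomatic 0.36, aligned them to GRCm38 with STAR 2.5.2b and deposited raw counts of uniquely mapped exonic reads per Ensembl gene from featureCounts, not normalised; the Ensembl release and strandedness are not given in the sources used here. Of the 49315 identifiers, 99.5% are in GENCODE M21, which gave names, positions and exon lengths. The genotype test was run in edgeR 4.0.16 under R 4.3.3 (filterByExpr with minimum count 10, TMM, robust quasi-likelihood fit, Benjamini-Hochberg adjustment over all genes tested) and, as an alternative, DESeq2 1.42.0. Levels per kilobase divide CPM by the length of all exons. Log2 CPM used a prior count of 0.5. Fits were tested on simulated counts. No libraries held the same counts.

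The members and gene lists were chosen with earlier results of these data known. Values by mouse are given for members with an unadjusted p under 0.05 or groups without overlap, the 5 highest per kilobase, the 3 with the largest SD, and the control points Cd36, Lpl, Angptl4, Cpt1a, Cpt1b, Acacb, Mlycd, Acadvl, Hadha, Pnpla2 and Lipe. Acot2, Hadhb and Crat were added after their values were seen. Other pathway genes were named at an unadjusted p under 0.05 or without overlap, and G0s2, Ppara, Ppargc1b and Acot1 were added after their values were seen. Alternatives were other normalisations, filters, covariates and left-out mice. Reads carry no molecular identifiers, so counts measure reads, not molecules.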

Additional observations from a re-analysis of the deposited data

Results flagged for a closer look

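In 68 groups (34 members in each genotype) the gap between the most extreme mouse and its nearest neighbour on the log2 CPM scale was set against the range of the group. It passed the 95% limit for 5 samples in 6 groups, where chance alone gives 3.4. All 6 were mouse AHRmKO 34, low for Slc27a1 (gap 0.746 of the range), Acadl (0.711), Acads (0.836), Hadha (0.731), Hadh (0.75) and Pnpla2 (0.717). The members share mice, so these are not separate events. Chance flags about 1 in 20 groups. Without this mouse the log2 fold change was 0.17 for Acadl, 0.13 for Hadha and -0.14 for Pnpla2. It turned from -0.0065 to 0.13 for Slc27a1, from -0.039 to 0.031 for Acads and from -0.029 to 0.045 for Hadh, and 0 of these 6 genes passed the test.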

How the results depend on the processing

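Under every alternative run, 0 members and 0 other pathway genes had an adjusted p under 0.05, and the lowest among the named members was 0.316 (edgeR or DESeq2). At an unadjusted p under 0.05 there were 2 members with DESeq2 (Mlycd and Acot2, 3.62% of 31833 genes). There were 2 with no filter beyond 1 count (Mlycd and Pnpla2, 5.65% of 31858 genes). Both shares include genes of few counts, which the filter of the main fit, with 14714 genes, left out. There were 3 with the slow-fibre score (Mlycd, Acot2 and Pnpla2, 7.65% of all genes) and 3 with Myh2 (Mlycd, Cpt1b and Pnpla2, 8.47%). Leaving out each mouse gave 1 to 3 (3 without AHRfl/fl 12, 6.5% of all genes, and 2 without AHRmKO 19, 8.16%). Other pathway genes at that level numbered 3 to 9 leaving out each mouse, the lowest without AHRmKO 8 (5.58% of all genes) and the highest without AHRfl/fl 12 (6.5%). Members rising with the slow-fibre score numbered 9, 0 to 22 leaving out each mouse, 0 with Myh7 alone, 0 without the 2 farthest mice and 22 with Myh2. The genotype log2 fold changes of Mlycd, Acot2, Pnpla2, Cpt1b and Acacb kept their sign under all alternatives, but not their size. Without the 5 libraries with Xist counts (AHRfl/fl 12 and 13 against AHRmKO 8, 19 and 34) they were -0.38, -0.14, -0.079, 0.47 and 0.086. In that fit Acadl, Etfa, Hadha and Hadhb were 0.31, 0.22, 0.22 and 0.19. With the slow-fibre score in the model Cpt1b was at 0.14 and Acacb at 0.038. Log2 fold changes of other named members turned, and the cause was not tested. With library size alone they became -0.0087 for Hadhb. With no filter beyond 1 count they became 0.0011 for Acadvl. With the slow-fibre score in the model they became -0.023 for Cd36, -0.15 for Lpl, -0.089 for Acadl, -0.048 for Etfa, -0.042 for Hadha and -0.067 for Hadhb. With the adipocyte score they became -0.072 for Lpl, 0.0023 for Fabp3 and 0.0086 for Acadvl. Without the 5 libraries with Xist counts they became 0.58 for Angptl4, 0.65 for Fabp3, -0.090 for Cpt1a, 0.17 for Acadvl, 0.29 for Acaa2, 0.068 for Lipe and 0.39 for Plin5. With Myh2 as a covariate (chosen after seeing the data) they became -0.088 for Lpl, -0.037 for Acadl, -0.014 for Etfa, -0.0011 for Hadha and -0.025 for Hadhb. Leaving out each mouse gave -0.080 to 0.29 for Cd36, -0.25 to 0.21 for Lpl, -0.56 to 0.11 for Angptl4, -0.23 to 0.31 for Fabp3, -0.011 to 0.16 for Cpt1a, -0.038 to 0.0022 for Crat, -0.086 to 0.079 for Acadvl, -0.094 to 0.17 for Acadl, -0.055 to 0.11 for Etfa, -0.068 to 0.13 for Hadha, -0.073 to 0.10 for Hadhb, -0.16 to 0.13 for Acaa2, -0.10 to 0.060 for Lipe and -0.40 to 0.17 for Plin5. The median over the members was -0.10 without AHRfl/fl 12 and 0.074 without AHRfl/fl 15. No paired analysis was possible because the labels give no litters. The fewest counts of a member in a mouse were 115, for Angptl4.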
